A study of Mus musculus with 6 samples.

Results

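Tumors of the mouse melanoma line B16 that had been treated with an antibody against PD1 (B16PD1, tumors 000 and 002) were compared with untreated B16 tumors (007 and 008), 2 tumors a side, by full-length single-cell RNA sequencing. Cells were chosen by their tumor name and retained with more than 1000 genes detected and less than 10% of their TPM (a cell's transcripts, scaled by transcript length to the same total in each cell) from mitochondrial genes, which left 351 of the 401 cells of these 4 tumors, among 602 cells in the whole series. By tumor, 91 of 101 cells were retained in B16_007, 86 of 100 in B16_008, 86 of 100 in B16PD1_000, and 88 of 100 in B16PD1_002. All 4 tumors grew from 50000 B16-F10 cells, an established and genetically mixed line, that were placed under the skin of C57BL/6 mice. The study injected mice on both flanks. Whether a tumor number stands for a single flank or for both is not given in the sources used here. The treated mice received 3 doses of 200 µg of the antibody, given on day 5, day 8, and day 11, and tumors of both conditions were taken on day 15. The study sorted CD45-negative cells to enrich for live tumor cells, so immune cells were largely removed before sequencing. No control antibody is named for the untreated mice, and the age of the animals is not given in the sources used here.

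PD1 is an inhibitory receptor on T cells, and antibodies that block it release T cells from this inhibition. Tumor cells then meet the products of T cells, among them interferon gamma, which induces interferon-stimulated genes and MHC class I. Melanoma cells also carry a pigment program under the transcription factor MITF, and they can vary in how fast they divide, how they make energy, and how they handle stress, which are the programs described here.

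A tumor's level of a gene is its mean log2(TPM + 1) over retained cells, and a difference is the mean of the 2 B16PD1 tumors minus that of the 2 B16 tumors. The tumors, not the cells, are the replicates. With 2 tumors against 2, a two-sided exact permutation test cannot go below p = 0.333, so single lists and shares of cells are described without a test and genes were tested with limma across 11264 genes. Between 3388.5 (B16_008) and 3838.5 (B16PD1_002) genes were detected in the median cell of a tumor, and TPM does not hold the depth in reads. B16_008 also had the lowest mean log2(TPM + 1) over all genes and cells, 1.91, against 1.97 or more in the other 3 tumors. B16_007 stood apart in its interferon-stimulated and MHC class I genes, as described last. The first number in the cell names took no value shared by 2 conditions. What it stands for is not given in the sources used here, and it cannot be told apart from the condition.

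The defining markers of the tumor cells were present: all 7 melanoma markers were seen, and Pmel, the protein of the fibrils on which melanin is laid down, was detected in 100% of the 351 cells. The mean of their summed TPM per cell was nonetheless lower in B16PD1, at 14000 and 14500 against 16800 and 16700 in B16, with 4 of the 7 markers lower and 1 higher without overlap. Of these markers, Tyrp1, Dct, and Mlana are described again below with the pigment genes, and Mitf and Sox10 with the lineage factors. The marker and pigment results therefore share genes and are not separate observations. Of the T and NK cell markers, 2 of 15 were seen, each list member in at most 1 cell, and Cd3e, Cd8a, and Nkg7 were at 0. Of the myeloid markers, 16 of 19 were seen, the most frequent being Fcer1g in 23 cells (6.55%). The mean of their summed TPM per cell was 304 in B16_007, 19.3 in B16_008, 35.9 in B16PD1_000, and 232 in B16PD1_002, so this signal did not separate the conditions. Cells with any of these markers numbered 8, 10, 10, and 14 in this order. In B16_007, C1qa and C1qb were each found in 1 of 91 cells, at 2180 and 5670 TPM. Fibroblast markers (7 of 10 seen, summed TPM between 0.0351 and 2.55) and keratinocyte markers (1 of 8 seen, between 0 and 0.105) were near 0. Endothelial markers summed to 65.0 and 48.0 in B16 and to 103 and 44.9 in B16PD1, nearly all of it from Egfl7, found in 25.4% of cells, with Cdh5, Kdr, Tek, Cldn5, and Esam at 0.

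No gene differed between B16PD1 and B16 at an adjusted p below 0.05 (limma, Benjamini-Hochberg over 11264 genes), that is 0.0% of genes. At an unadjusted p below 0.05, 340 genes (3.02%) were higher in B16PD1 and 188 (1.67%) were lower. Among all genes, both B16PD1 tumors lay above both B16 tumors for 2018 (17.9%) and below both for 1732 (15.4%), and the median difference was 0.01. These shares are the background against which the members of each pathway are read. The excess of higher over lower genes depended on scaling. Of the genes at an unadjusted p below 0.05, 64.4% were higher with the values as given, 49.3% after each cell was centered on its mean, and 33.5% with the log2 of the mean TPM.

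The 12 genes with the largest positive differences were Rps23-ps1, Mtg1, Cks1b, Tyms, Cinp, Mrpl33, Lsm5, Rhoc, Rpl30-ps9, Lsm3, Naa10, and Hacd1. Cks1b, a small partner of cyclin-dependent kinases, had levels of 5.06 and 5.91 in B16 and 7.01 and 6.86 in B16PD1, a difference of 1.45 ± 0.36 (SE, n = 2 tumors a side, limma adjusted p = 0.989). Tyms, which makes thymidylate for DNA synthesis, had 3.51 and 3.30 in B16 against 5.47 and 4.02 in B16PD1 (difference 1.34 ± 0.42). The other genes included Mtg1 and Mrpl33, which serve the mitochondrial ribosome, and Lsm3 and Lsm5, subunits of the ring that binds U6 RNA in splicing, with differences from 1.26 to 1.45. Rps23-ps1 and Rpl30-ps9 are annotated as processed pseudogenes, and reads of such copies can be shared with the parent genes, so their differences of 1.57 and 1.26 are uncertain.

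The 12 genes with the largest negative differences were Eogt, Dgcr2, Gfpt1, C2, Brca1, Necap1, Nr4a3, Vps16, Gsta1, Bcas3, Cmtm7, and Brd2. Eogt, which adds N-acetylglucosamine to secreted proteins in the endoplasmic reticulum, had 6.32 and 5.57 in B16 and 4.74 and 4.85 in B16PD1, a difference of -1.15 ± 0.35 (SE). Gfpt1, the first enzyme of the pathway that makes this sugar's donor, had 4.69 and 5.30 against 4.27 and 3.56 (difference -1.08 ± 0.36). Gsta1, a glutathione transferase, was the most abundant of these 12, at 7.84 and 7.73 in B16 and 6.86 and 6.80 in B16PD1 (difference -0.95 ± 0.28). Brca1, which repairs DNA breaks, had 3.98 and 3.82 against 2.63 and 3.12 (difference -1.03 ± 0.34). In each of these genes the tumors of the 2 conditions did not overlap, which the rule for naming them required, and the adjusted p of all 24 was 0.989.

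**Figure D1:**
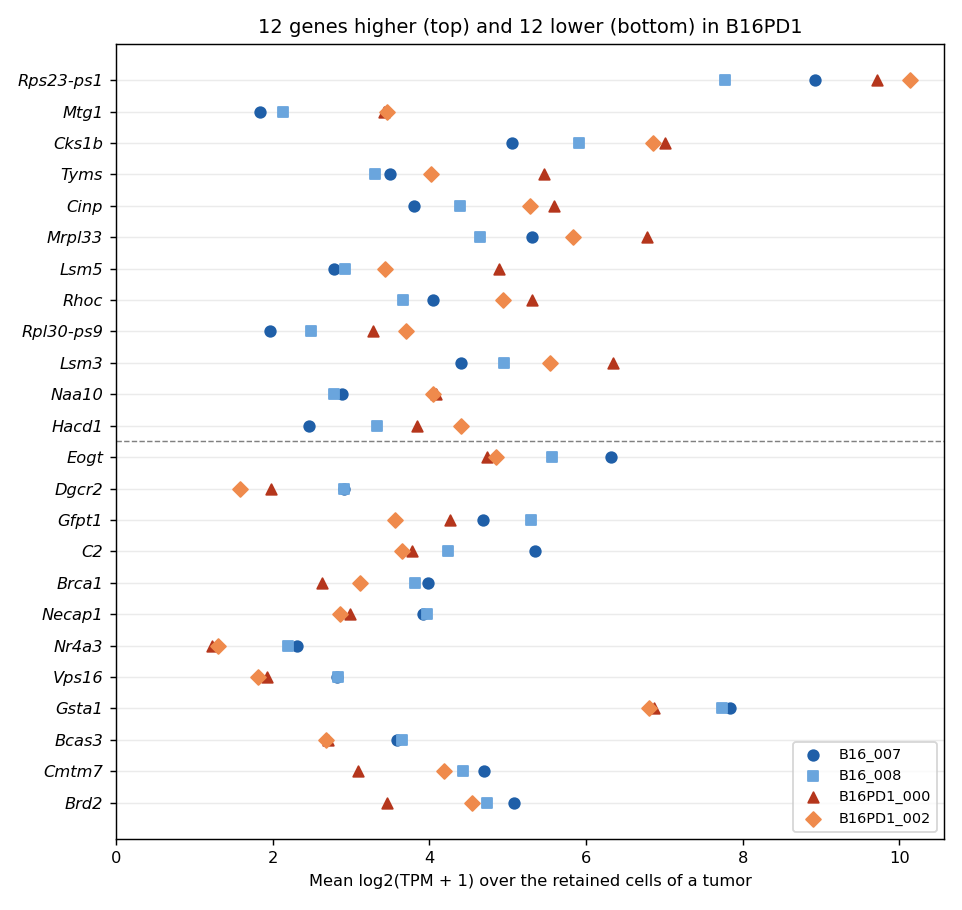
Level of the 24 named genes in each tumor. The x axis is the mean log2(TPM + 1) over retained cells and each symbol is 1 tumor (blue, B16; red and orange, B16PD1). For the 12 genes above the dashed line both B16PD1 tumors sit to the right of both B16 tumors, and for the 12 below it to the left, as the naming rule requires.

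The pathways were described by 24 lists of genes. The mean over list members lay higher in both B16PD1 tumors than in both B16 tumors for 4 lists (S phase, G2/M, cytosolic ribosomal proteins, and oxidative stress) and lower for 1 (immediate early genes), that is 16.7% and 4.17% of the lists. Among single genes the shares were 17.9% and 15.4%, so the lists separated no more often than genes did. In the other lists the tumors of the 2 conditions overlapped.

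**Figure D2:**
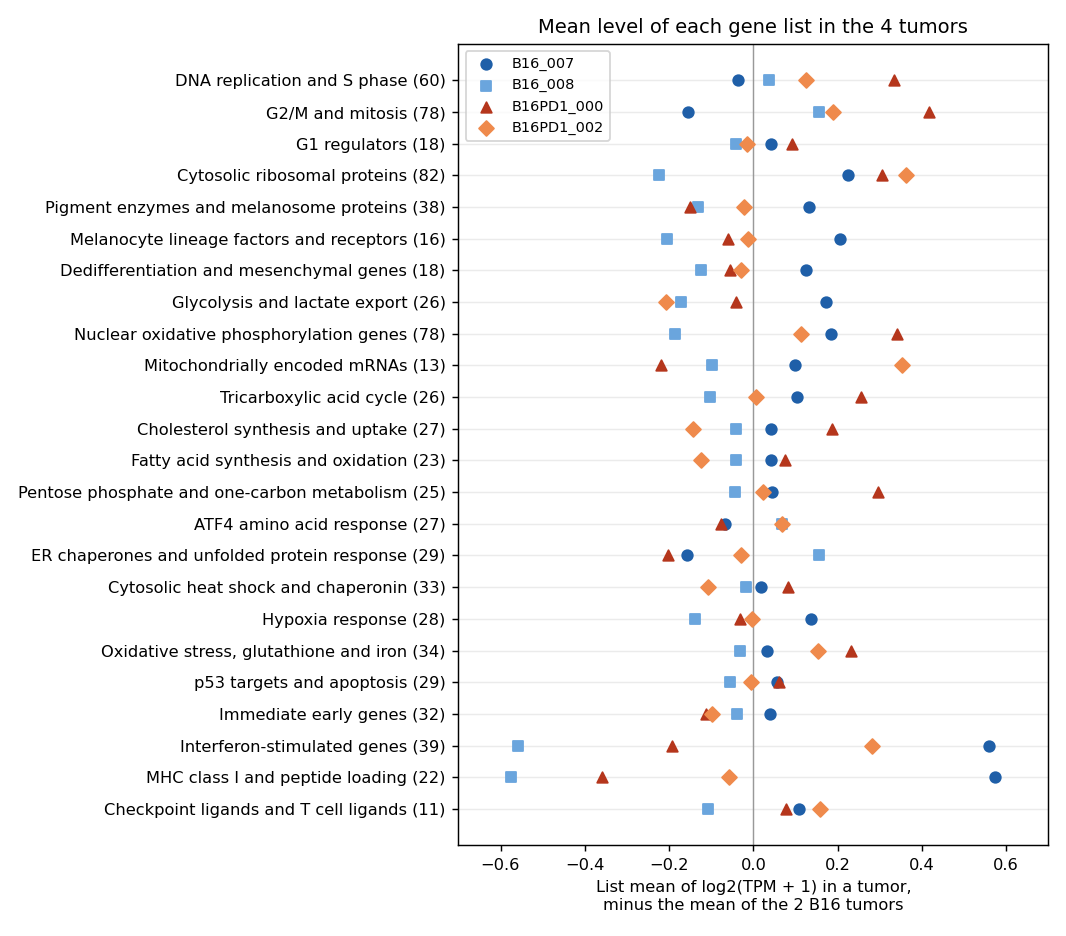
Mean level of each gene list in the 4 tumors, as the list mean of log2(TPM + 1) minus the mean of the 2 B16 tumors, with the number of genes tested in brackets. Each symbol is 1 tumor. The red and orange symbols lie to the right of both blue symbols for S phase, G2/M, ribosomal, and oxidative stress genes, and the blue symbols lie farthest apart for interferon-stimulated and MHC class I genes.

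Of the genes of cell division, 28 of 78 tested G2/M members and 23 of 60 tested S phase members were higher in B16PD1 without overlap, while the G1 regulators were balanced, and 0 passed the adjusted test. The G2/M and mitosis list had means of 2.08 in B16_007, 2.40 in B16_008, 2.66 in B16PD1_000, and 2.43 in B16PD1_002. The difference was 0.30, and it was 0.15 without B16_007, since B16_008 lay close to B16PD1_002. Of its 78 tested members, 70 had a positive difference, 28 (35.9%) were higher without overlap, and 1 was lower, against 17.9% and 15.4% of all genes. The median difference was 0.29, and 6 members had an unadjusted p below 0.05, all higher.

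Cks1b led this list and was detected in 68.1% and 70.9% of B16 cells and in 86.0% and 83.0% of B16PD1 cells. Spc24, a subunit of the kinetochore complex that holds microtubules, had 1.72 and 2.06 in B16 and 3.14 and 2.62 in B16PD1 (difference 0.99 ± 0.34, SE). The most abundant members, the tubulins Tuba1b (10.51, 10.51, 10.79, and 10.54 in the order above) and Tubb4b (6.11, 6.24, 7.36, and 6.27) and the checkpoint protein Bub3 (7.12, 6.79, 7.39, and 7.04), were highest in B16PD1_000, with B16PD1_002 close to the B16 tumors. Rangap1, the GTPase activator of Ran, was the 1 member lower without overlap, with 4.09 and 4.35 against 3.81 and 3.31. G2e3, a ubiquitin ligase of the G2/M list, also had a negative difference, with 1.20 and 1.69 against 1.22 and 1.39.

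Of 4 standard markers, chosen here after their values were seen, Mki67 and Top2a overlapped between the conditions and Ube2c and Cdk1 did not. Mki67, which coats mitotic chromosomes, had 1.09 and 1.45 in B16 and 1.63 and 1.34 in B16PD1, and was detected in 28.6% and 37.2% against 47.7% and 34.1% of cells. Top2a, the topoisomerase that untangles sister DNA, had 3.27 and 3.45 against 3.47 and 3.27. Detection of Ccnb1, also looked up, overlapped, at 60.4% and 62.8% of B16 cells against 73.3% and 61.4% of B16PD1 cells. Detection of Cdk1 overlapped too, at 68.1% and 59.3% against 75.6% and 65.9%. Ube2c, which loads ubiquitin for the anaphase-promoting complex, had 3.33 and 4.38 against 5.02 and 4.51 (difference 0.91 ± 0.39, SE), and Cdk1, the kinase that drives entry into mitosis, had 4.93 and 4.56 against 5.86 and 5.01 (difference 0.69 ± 0.39).

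The upstream sequences of Cdk1 and Ube2c are shown because many mitotic promoters carry CCAAT boxes, bound by the factor NF-Y, and the element TTTGAA, bound by the cell cycle complex DREAM. Both come from RefSeq promoters on GRCm38.p6, written 5′ to 3′ along the gene, with bases that GENCODE places inside the gene left out and CCAAT or TTTGAA in capitals on either strand (ATTGG and TTCAAA on the other). Cdk1 lies at chr10:69352939-69353162 on the minus strand, where 3 CCAAT boxes and 1 TTTGAA were found in 224 bases. Ube2c lies at chr2:164769679-164769897 on the plus strand, where 6 CCAAT boxes were found in 219 bases, a pair of which overlap. Among the bases left out, Cdk1 held a further TTTGAA 15 to 10 bases before the RefSeq start. Ube2c held a TTCAAA 29 to 24 bases before its start, also among the bases left out.
Cdk1: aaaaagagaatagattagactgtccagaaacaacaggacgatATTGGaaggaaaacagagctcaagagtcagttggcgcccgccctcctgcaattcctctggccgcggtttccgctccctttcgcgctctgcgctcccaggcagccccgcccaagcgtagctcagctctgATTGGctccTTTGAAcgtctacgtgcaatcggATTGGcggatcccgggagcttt
Ube2c: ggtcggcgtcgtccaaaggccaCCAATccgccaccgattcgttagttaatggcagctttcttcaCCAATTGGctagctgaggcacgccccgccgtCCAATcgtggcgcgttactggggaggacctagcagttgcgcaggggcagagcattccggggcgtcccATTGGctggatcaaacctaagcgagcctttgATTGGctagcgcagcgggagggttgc

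Within 250 bases before the start, CCAAT was present for 45 of the 65 G2/M genes with a promoter in the table (69.2%) and for 37.5% of all 27025 genes. TTTGAA or TTTAAA was present for 49.2% of the G2/M genes and 28.1% of all genes. Of the 23 G2/M genes with a promoter that were higher without overlap, 15 held CCAAT and 10 held TTTGAA or TTTAAA. These counts describe the letters and do not show that a factor is bound.

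The list of DNA replication and S phase had means of 2.46 and 2.53 in B16 and 2.83 and 2.62 in B16PD1, a difference of 0.23. Of 60 tested members, 23 (38.3%) were higher without overlap and 3 were lower, against 17.9% and 15.4% of all genes. An unadjusted p below 0.05 in limma was found for 9 members, all higher. Rrm1, the large subunit of ribonucleotide reductase, had 5.21 and 5.31 in B16 and 6.58 and 6.03 in B16PD1 (difference 1.04 ± 0.36, SE). Its small subunit Rrm2 overlapped, with 5.42 and 5.42 against 6.58 and 5.40. Members outside this pattern were Pcna, the sliding clamp of the polymerases (6.49 and 6.03 against 6.09 and 6.40), Mcm10, which helps start the helicase (1.34 and 1.88 against 1.37 and 0.91), and Pold3, a polymerase subunit (2.71 and 2.58 against 2.67 and 2.06). The 18 tested G1 regulators were balanced, with 2 higher and 2 lower without overlap and a median difference of 0.02. Cdk4 and Cdk2, kinases that act from G1 into S phase, had 8.89 and 8.68 against 8.65 and 8.88 and 8.07 and 8.05 against 7.73 and 7.73, respectively. Ccnd2, a cyclin partner of Cdk4, had 7.09 and 6.54 against 6.62 and 6.66.

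For S phase and for G2/M, the share of cells with a high score was higher in both B16PD1 tumors than in both B16 tumors. The size of the G2/M difference depended on B16_007. A cell was called high when its mean over the list, less its mean over all genes, lay in the upper 25% of the 351 cells. For G2/M, 11 of 91 cells (12.1%, 95% Wilson interval 6.89% to 20.4%) were high in B16_007, 22 of 86 (25.6%, 17.5% to 35.7%) in B16_008, 30 of 86 (34.9%, 25.7% to 45.4%) in B16PD1_000, and 25 of 88 (28.4%, 20.0% to 38.6%) in B16PD1_002. B16_008 lay within the interval of B16PD1_002 and just below that of B16PD1_000. Without B16_007 the difference in shares went from 12.8 to 6.07 percentage points at the same limit, and to -0.83 when the limit was set again on the remaining cells. The S phase shares were 18.7% and 24.4% in B16 and 29.1% and 28.4% in B16PD1. Cells high for both lists made up 4.4% and 14.0% of B16 and 18.6% and 19.3% of B16PD1. A score has no natural boundary: 22 cells for G2/M and 15 for S phase lay within 0.1 of the limit. The intervals cover counting error only.

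**Figure D3:**
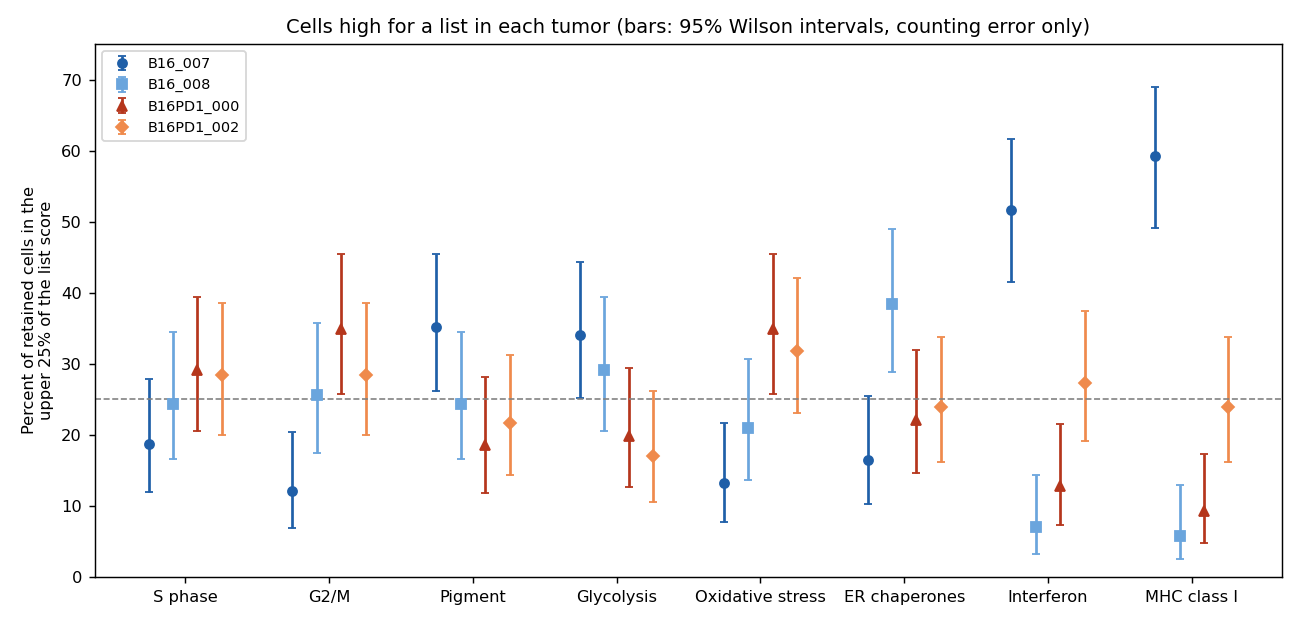
Percent of retained cells in the upper 25% of a list score, by tumor, for 8 lists. Points are tumors, bars are 95% Wilson intervals for counting error, and the dashed line marks 25%. In the S phase and G2/M lists both B16PD1 points lie above both B16 points, with B16_007 lowest for G2/M at 12.1% and the bars of the other 3 tumors overlapping, and B16_007 is far above the others for interferon-stimulated (51.6%) and MHC class I genes (59.3%).

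Of the 82 tested genes of cytosolic ribosomal proteins, 41 were higher in B16PD1 without overlap and 0 were lower, and 0 passed the adjusted test. They were also among the shortest transcripts. Their means were 10.03 and 9.58 in B16 and 10.11 and 10.16 in B16PD1, a difference of 0.33, with B16_008 low and B16_007 close to the treated tumors, and the difference was 0.11 without B16_008. Of the members, 16 had an unadjusted p below 0.05 in limma, all higher. Rpl36a had 4.82 and 3.81 against 5.15 and 5.89 (difference 1.21 ± 0.39, SE), and Rpl17 had 7.25 and 6.19 against 7.45 and 8.08. Abundant members moved less: Rpl32 had 13.30 and 13.24 against 13.26 and 13.28, and Rps18 had 12.14 and 11.999 against 12.41 and 12.37. Rps2 and Rpl23a had negative differences of -0.10 and -0.21. The 113 tested ribosomal protein pseudogenes, whose reads can be shared with these genes, had 23 higher and 7 lower without overlap.

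Across all genes the direction of the difference moved with transcript length. The genes tested were put in 8 bins by the longest transcript that GENCODE gives for each gene. In the shortest bin (164 to 1467 nucleotides) 28.9% of genes were higher and 6.75% lower without overlap, and in the longest (6353 to 123179 nucleotides) 11.9% were higher and 23.5% lower. The median difference went from 0.13 to -0.04. In the shortest bin, the median deviation from the mean of the 4 tumors was 0.00 in B16_007, -0.13 in B16_008, 0.09 in B16PD1_000, and 0.03 in B16PD1_002, so B16_008 and B16PD1_000 lay farthest apart. The median length was 1076 nucleotides for ribosomal proteins and 1186 for nuclear genes of oxidative phosphorylation, against 3494 for G2/M, 3113 for S phase, 3266 for pigment genes, and 3364 for all genes.

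As an alternative chosen after the data were seen, each tumor's median deviation within bins of length and mean level was subtracted. The background was then 16.9% higher and 15.9% lower among 11257 genes. The ribosomal list went to 23 higher and 7 lower, with a median difference of 0.08 in place of 0.27. The G2/M list went to 25 higher and 1 lower (median 0.27) and the S phase list to 19 higher and 4 lower (median 0.14), so these were nearly as large without the length trend. Centering each cell on its mean (background 14.4% higher and 19.2% lower) gave 26 higher and 1 lower for G2/M, 20 and 4 for S phase, and 40 and 1 for ribosomal proteins.

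**Figure D4:**
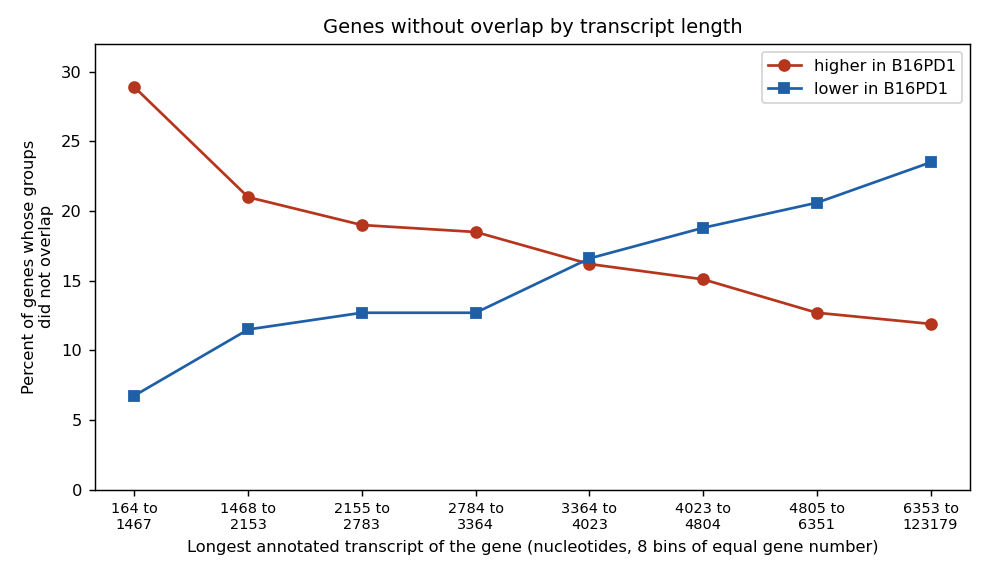
Percent of genes whose tumors did not overlap between B16PD1 and B16, by the longest annotated transcript of the gene, in 8 bins of about equal gene number (x axis in nucleotides). Red circles are genes higher in B16PD1, from 28.9% in the shortest bin to 11.9% in the longest, and blue squares are genes lower, from 6.75% to 23.5%.

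Of the 38 tested genes of pigment enzymes and melanosome proteins, 10 (26.3%) were lower in B16PD1 without overlap and 1 was higher, against 15.4% and 17.9% of all genes, and 0 passed the adjusted test. The list means overlapped (4.68 and 4.41 in B16, 4.395 and 4.52 in B16PD1), and their difference went from -0.09 to 0.05 without B16_007. A negative difference was found in 28 members, of which 1 had an unadjusted p below 0.05 in limma. The median difference was -0.12 and stayed at -0.11 with 11 lower and 1 higher after the length trend was removed.

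Tyrp1, a melanosome enzyme of eumelanin synthesis, had 12.01 and 12.21 in B16 and 11.41 and 11.72 in B16PD1, a difference of -0.54 ± 0.18 (SE, limma adjusted p = 0.989). Trpm1, a channel of melanocytes, had 7.77 and 7.58 against 6.85 and 7.29 (difference -0.60 ± 0.30), and Atp7a, which supplies copper to tyrosinase, had 3.69 and 3.19 against 3.06 and 2.66. Dct, the enzyme next to Tyrp1 in the pathway, lay only slightly lower, with 11.99 and 11.99 against 11.89 and 11.82. Mlana, a melanosome protein, overlapped (11.63 and 11.48 against 11.47 and 11.56), as did tyrosinase itself, Tyr, chosen after its values were seen (7.75 and 7.53 against 7.07 and 7.78). The members with the largest positive differences, Bloc1s2 and Bloc1s1, subunits of a complex that sorts cargo to melanosomes, overlapped between conditions with differences of 0.65 and 0.59.

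The M-box CATGTG is the site through which MITF is known to act on pigment genes. It was present within 250 bases before the start, on either strand, for 10 of 32 pigment genes with a promoter in the table (31.2%) and for 13.8% of all genes. Of the 7 pigment genes with a promoter that were lower without overlap, 4 held it: Dct, Slc24a5, Trpm1, and Tyrp1. The other pigment genes that held it were not lower without overlap. These counts describe the letters and do not show that MITF is bound. The upstream sequences of Trpm1 and Dct are printed, since their whole window lies outside the annotated gene, and that of Slc24a5 was not looked up. They come from RefSeq on GRCm38.p6, with the M-box in capitals on either strand (CACATG on the other). Trpm1 lies at chr7:64153585-64153834 on the plus strand and Dct at chr14:118052247-118052496 on the minus strand. In Tyrp1 the M-box stood 46 to 41 bases before the RefSeq start.
Trpm1: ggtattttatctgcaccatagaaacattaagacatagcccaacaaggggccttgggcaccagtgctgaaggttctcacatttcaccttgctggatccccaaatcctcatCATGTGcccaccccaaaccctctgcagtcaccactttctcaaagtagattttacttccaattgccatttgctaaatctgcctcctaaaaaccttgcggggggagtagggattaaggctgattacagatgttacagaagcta
Dct: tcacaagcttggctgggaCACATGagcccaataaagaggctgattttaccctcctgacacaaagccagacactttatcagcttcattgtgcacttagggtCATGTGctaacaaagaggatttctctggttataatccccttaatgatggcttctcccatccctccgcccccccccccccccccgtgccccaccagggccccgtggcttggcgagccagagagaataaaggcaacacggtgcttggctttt

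Among the 16 tested lineage factors and receptors, 4 were higher and 5 lower without overlap. Mitf had 6.76 and 6.72 in B16 and 5.95 and 6.07 in B16PD1, a difference of -0.73 ± 0.31 (SE, limma adjusted p = 0.989), and was detected in 95.6% and 95.3% against 90.7% and 93.2% of cells. Zeb2, a zinc finger factor of melanocytes, had 4.09 and 3.27 against 3.44 and 2.999. In the other direction, S100a1, a calcium-binding protein, had 6.86 and 5.69 against 7.26 and 7.05 (difference 0.89 ± 0.36). Ptgds, a prostaglandin synthase, overlapped (11.41 and 10.11 against 11.09 and 10.87). Sox10, which acts above Mitf, was higher without overlap, with 3.01 and 2.87 against 3.12 and 3.43.

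Dedifferentiation and mesenchymal genes were not higher as a list: 3 of 18 tested members were higher and 1 lower without overlap, with a median difference of -0.03. Aldh1a3, an aldehyde dehydrogenase, had 0.53 and 0.34 against 1.03 and 0.78 (difference 0.47 ± 0.14, SE), and Sox9 had 0.18 and 0.13 against 0.36 and 0.37. Axl, a receptor kinase of dedifferentiated melanoma, was highest in B16_007, at 1.14, against 0.18 in B16_008 and 0.14 and 0.33 in B16PD1. Vim, Sparc, and Cd44 overlapped. Cells high for the pigment list made up 35.2% and 24.4% of B16 and 18.6% and 21.6% of B16PD1, and without centering of cells the difference in shares went from -9.69 to 0.56 percentage points.

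Among the metabolic lists, 5 of 26 tested glycolysis genes (19.2%) were lower in B16PD1 without overlap (Hk1, Pfkl, Aldoc, Eno2, and Ldhb) and 0 were higher, against 15.4% and 17.9% of all genes. The glycolysis means overlapped, with 6.46 and 6.12 in B16 and 6.25 and 6.08 in B16PD1, and their difference went from -0.13 to 0.05 without B16_007. The members included 0 at an unadjusted p below 0.05 in limma. Pfkl, the phosphofructokinase of liver type, had 6.01 and 5.02 against 4.98 and 4.55 (difference -0.75 ± 0.38, SE), and Aldoc, an aldolase, had 6.65 and 6.58 against 6.39 and 5.57. The main enzymes of the pathway overlapped: Gapdh had 13.75 and 13.37 against 13.62 and 13.57, Aldoa 12.64 and 12.42 against 12.54 and 12.35, and Ldha, which makes lactate, 12.29 and 12.17 against 12.26 and 12.11. Cells high for glycolysis made up 34.1% and 29.1% of B16 and 17 of 86 and 15 of 88 cells of B16PD1. The hypoxia element ACGTG was found within 250 bases before the start for 45.8% of the 24 glycolysis genes with a promoter and 18.5% of all genes, and for 0 of the 5 lower members.

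The 78 tested nuclear genes of oxidative phosphorylation had means of 8.28 and 7.91 in B16 and 8.43 and 8.204 in B16PD1. Of them, 23 (29.5%) were higher and 2 lower without overlap, against 17.9% and 15.4% of all genes. The difference of these means went from 0.23 to 0.04 without B16_008. After the length trend was removed 13 members were higher and 12 lower, with a median difference of 0.05 in place of 0.26, close to the background. Ndufs3, a core subunit of complex I, had 6.03 and 6.48 against 6.81 and 7.27 (difference 0.78 ± 0.33, SE), and Uqcrq, a small subunit of complex III, had 11.14 and 10.44 against 11.41 and 11.23. Ndufa5 and Ndufa3, small subunits of complex I, both overlapped (differences 0.89 and -0.49), and Atp5b, the catalytic subunit of ATP synthase, had 11.53 and 11.23 against 11.36 and 11.19. The 13 mitochondrially encoded mRNAs had 2 higher and 0 lower, and the treated tumors lay on either side of the controls, at 8.56 and 9.13 against 8.87 and 8.68.

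**Figure D5:**
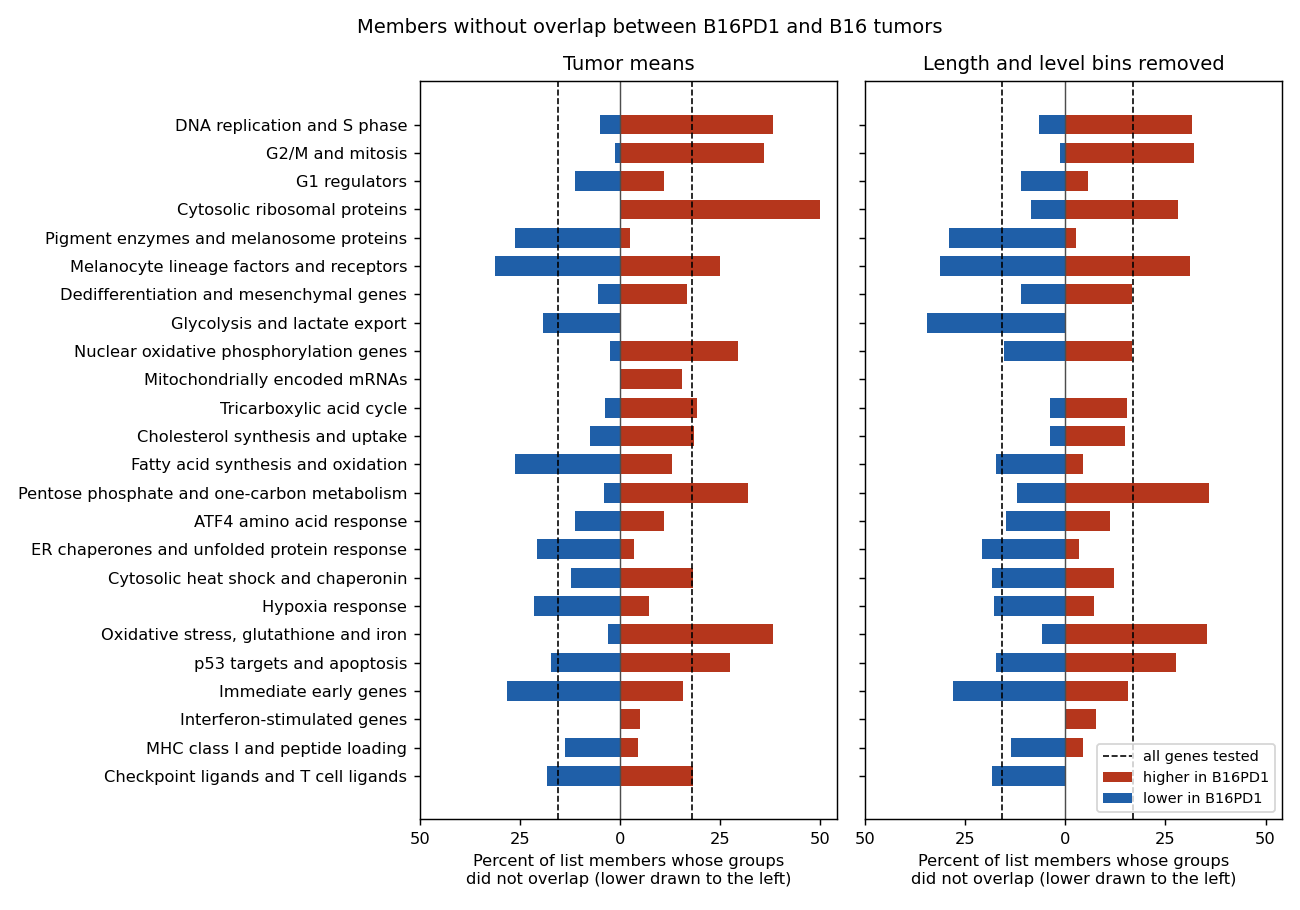
Percent of the tested members of each list that were higher (red, to the right) or lower (blue, to the left) in B16PD1 without overlap of the tumors. Dashed lines give the same for all genes (17.9% higher and 15.4% lower on the left panel; 16.9% and 15.9% on the right panel, where deviations within bins of transcript length and level were removed). S phase and G2/M stay beyond the dashed line on the right panel, and oxidative phosphorylation comes back to it.

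In the tricarboxylic acid cycle 5 of 26 tested members (19.2%) were higher and 1 (3.85%) lower, against 17.9% and 15.4% of all genes. The share higher was thus near that of all genes. The rises were led by Fh1, fumarase (4.54 and 3.78 against 5.32 and 4.74), and Pdhb, a subunit of pyruvate dehydrogenase (4.61 and 4.77 against 5.64 and 5.44). Pentose phosphate and one-carbon metabolism had 8 of 25 higher and 1 lower, led by G6pdx, which starts the pentose phosphate pathway (4.04 and 4.12 against 5.14 and 4.39), and Shmt1, which passes a carbon from serine to folate (1.57 and 1.47 against 2.56 and 1.64). Cholesterol synthesis had 5 of 27 (18.5%) higher and 2 (7.41%) lower, and fatty acid metabolism 3 of 23 (13.0%) higher and 6 (26.1%) lower. Acly, which supplies acetyl-CoA in the cytosol, had 5.90 and 5.91 against 5.53 and 4.90, and the desaturase Scd2 had 7.65 and 7.81 against 7.41 and 7.17.

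Among the stress programs, 13 of 34 tested genes of oxidative stress, glutathione, and iron (38.2%) were higher in B16PD1 without overlap and 1 was lower, which became 12 and 2 without the length trend. Among all genes 17.9% were higher and 15.4% lower, and without the length trend 16.9% and 15.9%. Of these genes, 4 had an unadjusted p below 0.05, all higher, and 0 passed the adjusted test in limma. The list means were 5.01 and 4.94 in B16 and 5.20 and 5.13 in B16PD1, a difference of 0.19. Mt2, a metallothionein that binds zinc and copper, had 7.56 and 7.51 in B16 and 8.98 and 8.42 in B16PD1, a difference of 1.17 ± 0.30 (SE, limma adjusted p = 0.989). It was detected in 81.3% and 76.7% of B16 cells and in 93.0% and 87.5% of B16PD1 cells. Its neighbor in the family, Mt1, overlapped, with 11.73 and 11.99 against 12.08 and 11.82.

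Known targets of the factor NRF2 went both ways. Osgin1 had 1.02 and 0.98 against 2.11 and 1.39 (difference 0.75 ± 0.27, SE), and Nqo1, a quinone reductase, had 0.34 and 0.27 against 0.89 and 0.64 (difference 0.46 ± 0.15), a gene chosen after its values were seen. Hmox1, heme oxygenase, was the 1 lower member, with 5.22 and 5.82 against 5.15 and 5.15. Gsta1, the glutathione transferase named above as lower in B16PD1, was not in this list. The ferritin genes Fth1 and Ftl1 overlapped, with differences of 0.11 and 0.07. Cells high for this list made up 13.2% and 20.9% of B16 and 34.9% and 31.8% of B16PD1, and without single tumors this difference of shares was 12.4 to 20.2 percentage points at the same limit and 9.57 to 19.5 when the limit was set again.

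Of 29 tested chaperones of the endoplasmic reticulum and genes of the unfolded protein response, 6 (20.7%) were lower and 1 higher without overlap, against 15.4% and 17.9% of all genes, and 1 had an unadjusted p below 0.05 in limma. Hspa5, the main chaperone of this compartment, had 8.82 and 9.61 in B16 and 8.70 and 8.76 in B16PD1. Syvn1, a ubiquitin ligase that removes misfolded proteins, had 1.63 and 1.98 against 1.03 and 1.06 (difference -0.76 ± 0.26, SE), and Dnajc3, a co-chaperone, had 4.64 and 4.86 against 4.47 and 3.94. Ppib, a prolyl isomerase, was the 1 higher member (7.45 and 7.36 against 8.15 and 7.92). The list means were 4.89 and 5.20 in B16 and 4.84 and 5.01 in B16PD1, with B16_008 highest. Without B16_008 the difference changed from -0.12 to 0.04.

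Immediate early genes, which respond within minutes to signals and also to tissue handling, had means of 2.09 and 2.02 in B16 and 1.94 and 1.96 in B16PD1. Of 32 tested members, 9 (28.1%) were lower and 5 (15.6%) higher without overlap, against 15.4% and 17.9% of all genes. Nr4a3, a nuclear receptor without a known ligand, had 2.31 and 2.20 against 1.22 and 1.31 (difference -0.99 ± 0.28, SE), and was detected in 51.6% and 47.7% against 33.7% and 30.7% of cells. Fos, a subunit of AP-1, had 6.32 and 6.56 against 5.80 and 5.64 (difference -0.72 ± 0.35), and its partner Jun had 1.34 and 1.64 against 0.98 and 0.96. Klf6 and Gadd45b went the other way, with differences of 0.53 and 0.39. The part of tissue handling in these values was not tested.

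The shares in the lists that follow are read against 17.9% higher and 15.4% lower among all genes. Cytosolic heat shock had 6 of 33 (18.2%) higher and 4 (12.1%) lower, with Hsp90aa1, Hsp90ab1, and Hspa8 differing by 0.08, -0.07, and -0.21. Hypoxia had 2 of 28 higher (7.14%) and 6 lower (21.4%), with P4ha1, a prolyl hydroxylase of collagen, at 5.11 and 4.60 against 3.94 and 4.43 and Ankrd37 at 1.67 and 1.28 against 2.48 and 1.83. The ATF4 amino acid response had 3 of 27 higher and 3 lower, with Atf4 itself at 8.50 and 9.05 against 8.57 and 9.03. The p53 targets and apoptosis genes had 8 of 29 higher (27.6%) and 5 lower (17.2%): Bax, which opens the mitochondrial membrane, had 5.05 and 4.28 against 5.68 and 5.48, while Bak1, which acts beside it, had 3.27 and 3.01 against 2.44 and 2.09. Cdkn1a, the p53-induced inhibitor of cyclin-dependent kinases, overlapped, with 4.404 and 3.92 against 5.86 and 4.36.

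Interferon-stimulated genes did not separate treated from untreated tumors, and the 2 B16 tumors lay at either end. Their mean over 39 tested members was 1.99 in B16_007, 0.87 in B16_008, 1.24 in B16PD1_000, and 1.71 in B16PD1_002, with 2 members higher and 0 lower without overlap. Cxcl10, a chemokine that attracts T cells, had 3.30 and 2.76 in B16 against 3.18 and 4.70 in B16PD1. MHC class I and peptide loading showed the same order, 3.90 and 2.75 against 2.97 and 3.27 over 22 tested members (1 higher and 3 lower). H2-K1, a class I heavy chain, had 7.08 and 3.95 against 4.27 and 5.07, and its partner B2m had 11.72 and 9.32 against 9.75 and 10.76.

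Cells high for interferon-stimulated genes made up 51.6% (95% Wilson interval 41.5% to 61.6%) of B16_007, 6.98% (3.24% to 14.4%) of B16_008, 12.8% (7.29% to 21.5%) of B16PD1_000, and 27.3% (19.1% to 37.4%) of B16PD1_002. At the same limit, the difference between B16PD1 and B16 was 13.1 percentage points without B16_007 and -31.6 without B16_008. With the limit set again on the remaining cells it was 21.6 and -34.1, so 1 control tumor decided its direction either way. Of the 11 tested checkpoint and T cell ligands, 2 were higher and 2 lower without overlap. Raet1d, a ligand of the activating receptor NKG2D, had 0.47 and 0.57 against 0.70 and 1.59, and Lgals9, galectin-9, had 5.73 and 4.76 against 5.66 and 5.88. Cd274, which encodes the PD1 ligand PD-L1 and was chosen after its values were seen, had 0.96 and 0.24 against 0.43 and 0.63, again highest in B16_007.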

How the data were processed

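Single cells of 6 tumors (3 conditions, 2 tumors each) were measured, of which the 4 B16 and B16PD1 tumors are described. Per the labels and the study's methods, reads were aligned with STAR and quantified with RSEM on mm10, and the authors deposited TPM of 25215 genes per cell, each cell summing to the same total. Versions and annotation are not given in the sources used here. The labels do not say which replicate each tumor number is, so tumors keep the names of the file.

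Of the genes, 11264 were tested, those detected in over 5 of the 507 cells retained from all 6 tumors. Tumor means of log2(TPM + 1), a pseudocount of 1 that understates changes of low genes, were fitted with limma 3.58.1 in R 4.3.3 (eBayes with a trend, 6 tumors, two-sided, Benjamini-Hochberg, threshold 0.05). P-values and SE rest on the spread between tumors within a condition. All 6 tumors enter this spread, including those of R499, the condition not described here, and limma moderates it across genes. Where a symbol had several IDs, the one detected in most cells was used. Of the IDs, 25185 matched GENCODE M21 on GRCm38, and 7 tested genes had no transcript length. Doublets were not called. Some members that the naming rule picks are not reported here. The script was tested on simulated data.

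The comparison, its gene lists (24 pathway lists, markers of 6 cell types, ribosomal pseudogenes) and tests were chosen with earlier results of these data known. Named were 12 genes per direction (largest difference among those at unadjusted p below 0.05 without overlap) and, per list, from its 3 most abundant members and its 2 largest differences in each direction; other genes are given as chosen after their values were seen, or as the members counted in a sentence. Alternatives were other pseudocounts, filters, averaging, centering, cell bands, fits, and left-out tumors, and, added after seeing the data, protein-coding genes only, left-out tumors with the limit of high cells kept, and removal of a trend with transcript length (10 bins by 5 of mean level).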

Additional observations from a re-analysis of the deposited data

How the results depend on the processing

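The count of genes at an adjusted p below 0.05 stayed at 0 in limma under every alternative but 1: leaving out single tumors gave 0 to 2 genes, the latter without B16_007, among them Rps23-ps1 (difference 2.14, adjusted p = 0.0305). At an unadjusted p below 0.05, genes higher and lower were 167 and 332 with the log2 of the mean TPM and 169 and 325 with the number of genes detected as covariate, which turned the excess around. Leaving out a tumor gave 169 to 475 higher (169 without B16_008) and 155 to 335 lower (335 without B16_008). The causes were not tested.

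The S phase difference was 0.37 with a pseudocount of 0.1, 0.11 with 10, and 0.089 with the log2 of the mean TPM, and 0.12 to 0.33 without single tumors. The oxidative stress difference was 0.28, 0.11 (pseudocounts 0.1 and 10), and 0.11 without the length trend. The G2/M difference was 0.49 with a pseudocount of 0.1, 0.14 with 10, and 0.16 with the log2 of the mean TPM. This averaging gave 0.13 for ribosomal proteins and 0.07 for oxidative phosphorylation. It gave -0.17 for glycolysis and -0.21 for endoplasmic reticulum chaperones. The pigment difference was -0.27 with the log2 of the mean TPM and -0.22 to 0.05 without single tumors, positive without B16_007. Without single tumors, G2/M ranged from 0.15 (without B16_007) to 0.46 (without B16_008), ribosomal proteins from 0.11 (without B16_008) to 0.56 (without B16_007), oxidative phosphorylation from 0.04 (without B16_008) to 0.41 (without B16_007), glycolysis from -0.30 (without B16_008) to 0.05 (without B16_007), and endoplasmic reticulum chaperones from -0.27 (without B16_007) to 0.04 (without B16_008).

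The difference in cells high for S phase was 4.1 percentage points with the upper 10% in place of the upper 25% and 4.32 to 11.2 without single tumors (11.2 without B16_008). For G2/M it was 1.78 with the upper 10% and -0.83 to 19.6 without single tumors, the lowest without B16_007. For pigment it was 0.56 without centering and -15.1 to -2.66 without single tumors, the last without B16_007. These ranges hold both ways of leaving out a tumor, with the limit of all 4 tumors kept and with the limit set again on the remaining cells, and for G2/M the difference without B16_007 was 6.07 and -0.83. No paired analysis was possible because the columns carry tumor numbers and not the replicate numbers of the labels. The study used separate mice in each condition and describes no pairing between them, so equal replicate numbers need not mark pairs. Depth in reads is unknown.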

Other observations

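The tumor with the most cells high for interferon-stimulated genes, B16_007, also had the fewest high for G2/M. Within B16_007, 6 of its 47 interferon-high cells (12.8%, 95% Wilson interval 5.98% to 25.2%) and 5 of its other 44 cells (11.4%) were high for G2/M. In B16PD1_002 the shares were 10 of 24 (41.7%, 24.5% to 61.2%) and 15 of 64 (23.4%, 14.7% to 35.1%). In B16PD1_000 they were 3 of 11 and 27 of 75, and in B16_008 1 of 6 and 21 of 80. These are cells of single tumors, given as a description with counting error only.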
